A study of Homo sapiens with 4 samples.

Results

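Chromatin contacts in senescent cells depleted of METTL14 were compared with those in senescent cells depleted of METTL3. METTL3 and METTL14 form the core of the complex that writes N6-methyladenosine (m6A) on RNA: METTL3 holds the catalytic site, and METTL14 is the partner that binds RNA and props up that site. Both proteins can also sit on chromatin, which raises the question of whether loss of either subunit leaves the same contact map. Senescent cells stop dividing for good and secrete cytokines, chemokines and proteases, a program that draws on newly acetylated enhancers.

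The comparison uses 2 of the 4 libraries of the study, 1 per genotype, chosen by their genotype labels. Both come from IMR90, a line of diploid fibroblasts from human fetal lung, in which a fusion of the estrogen receptor with H-RASG12V (ER:RAS) had been switched on to force senescence. One library carried shMETTL14 and the other shMETTL3. A senescent shcontrol library, made from the same ER:RAS cells with a control hairpin, is set beside them as a reference and took no part in choosing loci. The library of non-senescent control cells was not used. In the labels the treatment text gives METTL4 for the first of these, but its genotype and the design text give METTL14, which is used here. The number of hairpins for each gene is not given in the labels, and depletion of either protein was not measured in these files.

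Contacts were mapped with H3K27ac HiChIP, which joins neighbouring DNA ends inside crosslinked nuclei and then pulls down fragments bearing histone H3 acetylated on lysine 27, found at enhancers and promoters in use. The files list interactions between anchor regions with the number of paired-end tags (PETs) that join them. The shMETTL14 library held 936492 PETs in 368291 interactions, the shMETTL3 library 623930 PETs in 270754, and the shcontrol library 552029 PETs in 258943. Of 55317 anchors listed in any of the 3 senescent libraries, 55139 were listed in at least 1 knockdown library. Of these, 53100 were listed in both knockdown libraries, 1560 in the shMETTL14 library but not the shMETTL3 library, and 479 the other way round. Anchors listed in 1 of the knockdown libraries held at most 25 PETs. PETs were scaled to a total of 1000000 in each library, and values on that scale are called scaled PETs. With 1 library a genotype there is no replicate check: each interval below is an exact 95% interval for counting error alone, each difference is one between these libraries, and no p-value is given. PETs carry no molecular identifiers, so reads copied in PCR may count more than once. A lower PET count can reflect fewer cells with a contact, fewer contacts in each cell or less acetylation at the anchor, and these cannot be told apart.

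The fibroblast label was checked at gene starts. All 9 fibroblast markers examined had an anchor within 5 kb of their start, and their summed level was 1211 scaled PETs in the shMETTL14 library, 1338 in shMETTL3 and 1471 in shcontrol. The weakest was THY1, with 6 PETs in shMETTL14 and 4 in shMETTL3. The 4 epithelial markers EPCAM, ESRP1, KRT8 and CDH1 had 0 PETs in every one of these libraries. Of the endothelial genes, KDR and CDH5 had 0 PETs and TEK had 115, 130 and 123 scaled PETs in shMETTL14, shMETTL3 and shcontrol. The summed level of 4 blood genes was 35.2, 28.8 and 29.0 scaled PETs, with SPI1 and CD3E at 0. PTPRC, the leukocyte surface phosphatase CD45, had 18 PETs in shMETTL14, 3 in shMETTL3 and 6 in shcontrol, a ratio of 4.0 between the knockdowns (interval 1.17 to 21.2). Whether other cells had a part in that difference was not tested.

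Promoters of 4 genes that differed at anchors within 5 kb of their starts are shown first. DKK1 and CXCL2 stood higher in the shMETTL14 library and ZEB1 and MMP10 lower. An anchor within 5 kb of a start need not cover the printed window. The sequences are RefSeq promoters on GRCh38.p14, from 250 bases before to 50 bases after the gene start and 5′ to 3′ on the gene's own strand; anchors elsewhere are on hg19. The stretches are chr10:52314031-52314330 (plus strand) for DKK1, chr4:74099146-74099445 (minus strand) for CXCL2, chr10:31318167-31318466 (plus strand) for ZEB1 and chr11:102780579-102780878 (minus strand) for MMP10. Capitals mark matches on either strand to the AP-1 motif TGANTCA or the NF-kB motif (GGGA and CC with any 4 bases between them), which do not overlap each other in these windows. AP-1 and NF-kB are the transcription factors most closely tied to the senescent secretory program.
DKK1 promoter: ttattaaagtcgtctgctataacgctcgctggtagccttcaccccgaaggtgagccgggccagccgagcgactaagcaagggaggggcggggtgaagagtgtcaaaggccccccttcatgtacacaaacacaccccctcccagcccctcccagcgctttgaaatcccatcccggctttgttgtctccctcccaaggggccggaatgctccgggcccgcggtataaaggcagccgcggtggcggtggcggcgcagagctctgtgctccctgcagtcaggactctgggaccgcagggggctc
CXCL2 promoter: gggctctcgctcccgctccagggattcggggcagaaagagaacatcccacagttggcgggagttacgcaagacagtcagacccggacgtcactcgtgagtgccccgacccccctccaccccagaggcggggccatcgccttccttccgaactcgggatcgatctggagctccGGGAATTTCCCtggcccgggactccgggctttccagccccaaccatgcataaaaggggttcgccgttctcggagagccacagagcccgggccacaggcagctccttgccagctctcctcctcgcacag
ZEB1 promoter: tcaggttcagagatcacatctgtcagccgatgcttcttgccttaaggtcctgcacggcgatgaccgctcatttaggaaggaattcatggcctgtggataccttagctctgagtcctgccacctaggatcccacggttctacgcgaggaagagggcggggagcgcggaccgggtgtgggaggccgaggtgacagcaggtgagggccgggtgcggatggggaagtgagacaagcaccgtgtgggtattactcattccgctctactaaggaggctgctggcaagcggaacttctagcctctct
MMP10 promoter: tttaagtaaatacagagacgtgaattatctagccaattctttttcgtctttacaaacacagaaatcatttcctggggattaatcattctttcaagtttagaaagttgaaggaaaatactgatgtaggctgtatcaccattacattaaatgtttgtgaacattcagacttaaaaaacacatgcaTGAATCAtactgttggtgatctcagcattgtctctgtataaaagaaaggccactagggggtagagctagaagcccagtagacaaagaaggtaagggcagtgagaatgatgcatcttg
The CXCL2 window held 2 overlapping NF-kB matches, one on each strand, and the MMP10 window held 1 AP-1 match. These letters were found in neither the DKK1 window nor the ZEB1 window. Among 35116 promoters of the same length, 25.6% held the NF-kB motif and 7.71% the AP-1 motif, and the matches are given as a description. Base composition differed widely: G and C made up 36.3% of the MMP10 window, 58.3% of ZEB1, 63.7% of DKK1 and 65% of CXCL2.

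The reach of contacts was the first difference between the knockdowns. Contacts that spanned 500 kb or more made up a larger share of the shMETTL14 library than of the shMETTL3 library, and contacts of 5 to 200 kb a smaller one. Contacts of 1 to 2 Mb made up 6.34% of PETs in shMETTL14, 4.93% in shMETTL3 and 6.03% in shcontrol. The shMETTL14 library was thus above both others and the shMETTL3 library was below both, with shMETTL14 close to the control. The ratio between the knockdowns was 1.29 (interval 1.27 to 1.30) at this span.

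The difference changed step by step with distance. At 500 to 1000 kb the shares were 8.94% in shMETTL14, 7.69% in shMETTL3 and 8.63% in shcontrol, with a knockdown ratio of 1.16 (1.15 to 1.18). At 200 to 500 kb the knockdowns lay close, at 15.6% and 15.3%, both under the 16.5% of shcontrol, and the ratio was 1.02 (1.01 to 1.03). At 100 to 200 kb the order of the knockdowns turned, with 13.4% in shMETTL14, 14.3% in shMETTL3 and 14.7% in shcontrol. The ratio there was 0.942 (0.934 to 0.95). It was 0.939 at 50 to 100 kb, 0.972 at 20 to 50 kb, 0.967 at 10 to 20 kb and 0.973 at 5 to 10 kb, and the interval lay below 1 in each of these classes. At 5 to 50 kb both knockdown libraries held a larger share than shcontrol. All contacts of 100 kb or more made up 44.4% of shMETTL14, 42.2% of shMETTL3 and 45.9% of shcontrol, a knockdown ratio of 1.05. The median span was 75.5 kb in shMETTL14, 69.7 kb in shMETTL3 and 82.6 kb in shcontrol.

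Most PETs at 1 to 2 Mb were alone in their interaction: 78.3% of that class in shMETTL14, 86.7% in shMETTL3 and 84.4% in shcontrol. The shares were therefore taken again without single PETs. Among interactions of at least 2 PETs, contacts of 1 to 2 Mb made up 1.83% of PETs in shMETTL14, 0.912% in shMETTL3 and 1.36% in shcontrol. The knockdown ratio was then 2.00 (1.93 to 2.08), larger than over all PETs. A deeper library turns more single PETs into repeated ones, and shMETTL14 was the deepest. Among interactions of at least 4 PETs the ratio was 3.12 (2.81 to 3.47) at full depth and fell to 2.02 (1.79 to 2.28) once shMETTL14 was brought to the shMETTL3 total. Ratios over repeated PETs at full depth thus carry a part that comes with depth. Among single PETs alone the ratio was 1.33 (1.31 to 1.35). That set also changes with depth, since a deeper library turns single PETs into repeated ones. Its ratio at 5 to 10 kb was 0.549 (0.511 to 0.591). No value for single PETs was taken at equal depth.

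**Figure D1:**
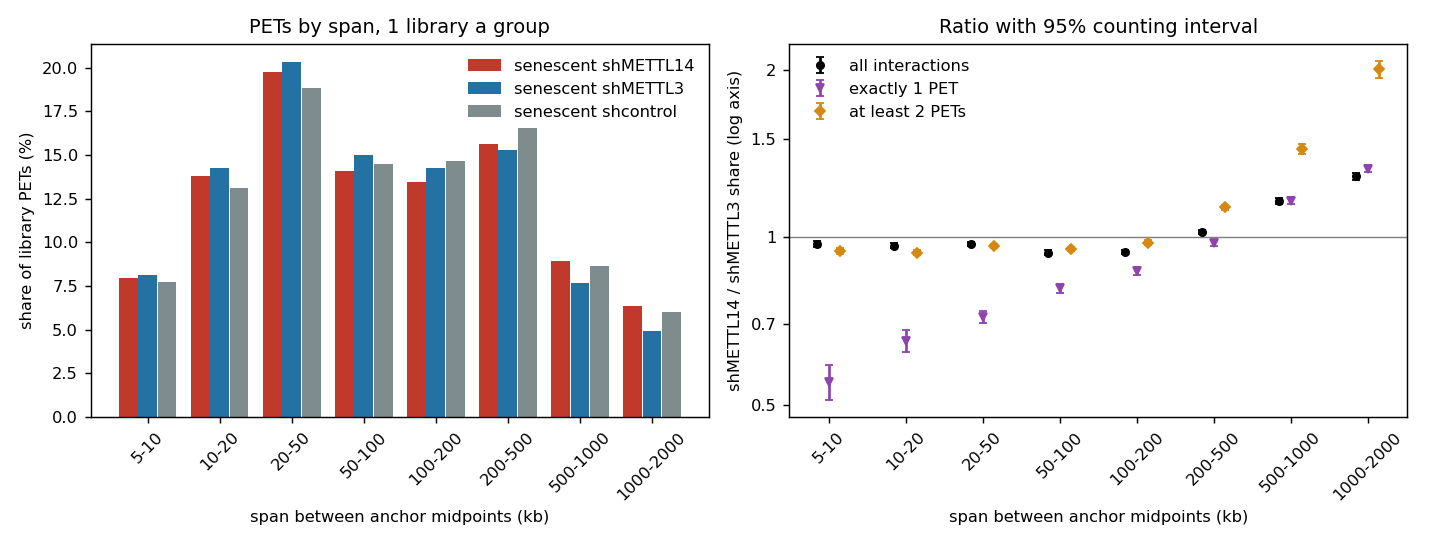
Left, share of each senescent library's PETs (%) by the distance between anchor midpoints (kb), with 1 bar per library. Right, the shMETTL14 share divided by the shMETTL3 share in each distance class on a log axis with 95% counting intervals, for all interactions, those of exactly 1 PET and those of at least 2 PETs; over all interactions the ratio goes from 0.973 in the shortest class to 1.29 in the longest.

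The long-range difference was seen on every chromosome examined. On chromosomes 1 to 22 and X, the share of a chromosome's own PETs at 1 to 2 Mb was higher in shMETTL14 on 23 of 23, and the interval lay above 1 on 21. The exceptions were chromosome 19, with a ratio of 1.10 (0.990 to 1.22), and chromosome 22, with 1.13 (0.977 to 1.31). The largest ratios were 1.38 (1.17 to 1.63) on chromosome X and 1.37 (1.23 to 1.52) on chromosome 18. Leaving out any 1 chromosome kept the genome-wide ratio between 1.28 and 1.29.

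The libraries also divided their PETs differently among chromosomes. Chromosome 4 took 4.57% of PETs in shMETTL14, 4.16% in shMETTL3 and 4.58% in shcontrol, a knockdown ratio of 1.10 (1.08 to 1.12). Chromosome 18 took 2.05%, 1.90% and 1.91%, a ratio of 1.08 (1.05 to 1.10). On chromosome 4 the shMETTL3 library was the one apart from the control, while on chromosome 18 it was the shMETTL14 library. The interval lay above 1 on 7 chromosomes (1, 3, 4, 5, 6, 18 and X), below 1 on 7 (12, 14, 16, 17, 20, 21 and 22) and included 1 on 9. Chromosome 21 took 1.45% in shMETTL14, 1.61% in shMETTL3 and 1.49% in shcontrol, a ratio of 0.901 (0.878 to 0.925). Chromosome 22 was at 0.902 (0.877 to 0.928) and chromosome 16 at 0.922 (0.903 to 0.941). Contacts under 100 kb and those of 100 kb or more lay on the same side of 1 on 17 of 23 chromosomes.

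**Figure D2:**
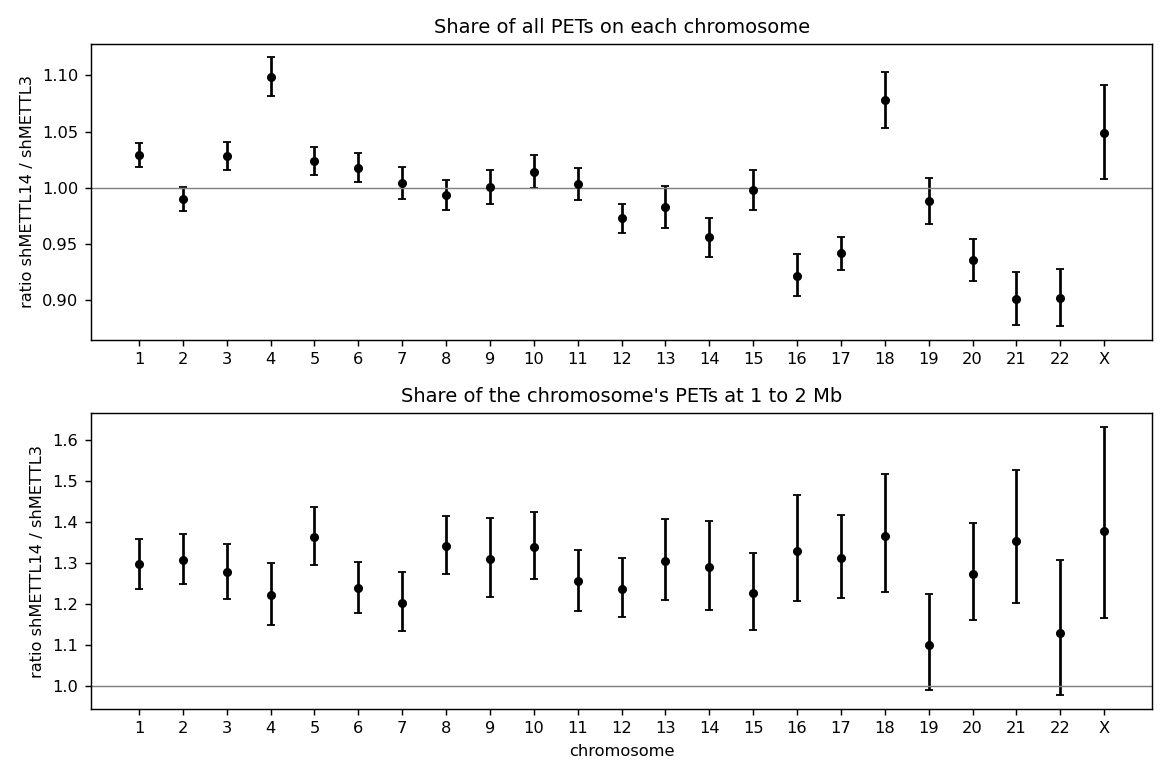
Ratio of shMETTL14 to shMETTL3 for chromosomes 1 to 22 and X, with 95% counting intervals: top, the share of the library's PETs that fall on the chromosome; bottom, the share of the chromosome's PETs that span 1 to 2 Mb. In the top panel chromosome 4 is highest at 1.10 and chromosome 21 lowest at 0.901; in the bottom panel every point lies above 1.

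Anchor by anchor, few loci differed at least 2-fold between the knockdown libraries. An anchor's level is the number of PETs with an end in it, and its log2 ratio was taken on scaled PETs plus 1, shMETTL14 over shMETTL3. An anchor met the size rule if it differed at least 2-fold on that scale, had an interval that excluded 1 and held at least 50 PETs over both libraries. Of 17878 anchors with enough PETs, 353 were higher in shMETTL14 and 206 lower, which is 1.97% and 1.15% of those compared and 3.13% together. The median log2 ratio of all was 0.02 with an SD of 0.45 across anchors. The split leans on the scaling: with libraries scaled to the PETs in pairs listed in both, the median rose to 0.17, 630 anchors were higher and 106 lower. It also leans on the minimum: at 100 PETs or more, 38 anchors were higher and 58 lower.

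Which side an anchor fell on moved with its strength. The median log2 ratio was 0.06 at anchors of 20 to 49 PETs, 0.04 at 50 to 99, 0.02 at 100 to 199, -0.03 at 200 to 499 and -0.11 at 500 or more. Weak anchors thus stood slightly higher in shMETTL14 and the strongest anchors slightly lower. Of anchors with 200 to 499 PETs, 2 met the size rule as higher and 19 as lower, and none of the 395 with at least 500 PETs met it either way. Anchors of at least 500 PETs held 9.17% of PET ends in shMETTL14, 10.0% in shMETTL3 and 9.69% in shcontrol.

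**Figure D3:**
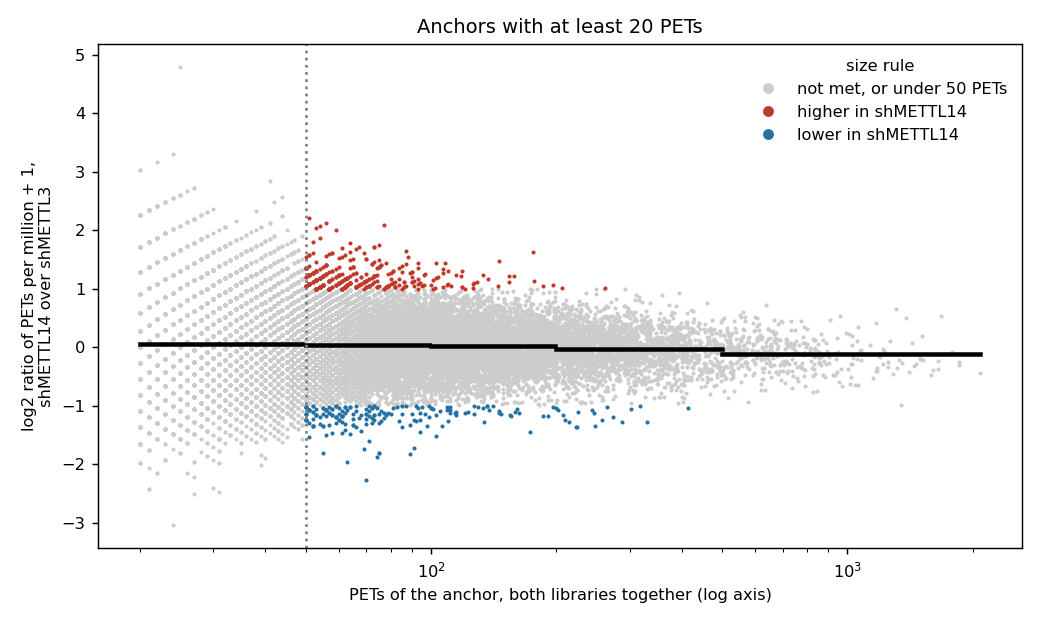
Each point is an anchor with at least 20 PETs; the x axis is its PETs in both knockdown libraries together (log axis) and the y axis the log2 ratio of scaled PETs plus 1, shMETTL14 over shMETTL3. Red and blue points met the size rule, the dotted line marks its minimum of 50 PETs, and black bars are medians by PET class, which go from 0.06 at 20 to 49 PETs to -0.11 at 500 or more.

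The 15 anchors most raised in shMETTL14, among those with at least 100 PETs, held 85.4 to 155 scaled PETs in that library and 32.1 to 56.1 in shMETTL3. They are named by position on hg19 and by the nearest of 285 genes whose hg19 positions were entered by hand to the nearest kb, so a closer gene outside that list is possible. First was chr8:16216909-16225634, 171 kb from MSR1, a macrophage scavenger receptor gene. It held 145 PETs in shMETTL14, 31 in shMETTL3 and 77 in shcontrol, or 155, 49.7 and 139 scaled PETs. The shMETTL14 level was near the control and the shMETTL3 level far below both. The log2 ratio was 1.62, a ratio of 3.12 (2.10 to 4.75), and the anchor had 36 partner anchors in shMETTL14 against 12 in shMETTL3.

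The next anchors followed another order. At chr7:24815445-24821190, between the lipid-transfer gene OSBPL3 and the pyroptosis effector gene GSDME, PETs numbered 118 in shMETTL14, 28 in shMETTL3 and 29 in shcontrol. Here shMETTL14 stood alone, with 126 scaled PETs beside 44.9 and 52.5, and the knockdown ratio was 2.81 (1.85 to 4.40). At chr2:65019137-65022487, between SERTAD2 and SLC1A4, PETs numbered 83, 20 and 20, a ratio of 2.76 (1.68 to 4.76). At both of these the shMETTL3 and shcontrol levels lay close together and the shMETTL14 level was far above both.

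Genes of secreted and matrix proteins were among the rest of the 15. An anchor over the start of DKK1, which encodes a secreted inhibitor of Wnt signalling, held 92 PETs in shMETTL14, 26 in shMETTL3 and 41 in shcontrol. The shcontrol level of 74.3 scaled PETs fell between 98.2 in shMETTL14 and 41.7 in shMETTL3, and the knockdown ratio was 2.36 (1.51 to 3.80). An anchor in ADAMTS12, a secreted metalloprotease gene, held 87, 23 and 21 PETs, a ratio of 2.52 (1.58 to 4.18). The ADAMTS12 start went the other way, with 61, 60 and 36 PETs and a ratio of 0.677 (0.466 to 0.984). An anchor in ADAMTSL1, a related gene without the protease domain, held 120, 34 and 58 PETs, a ratio of 2.35 (1.60 to 3.55). The control was intermediate at the ADAMTSL1 anchor, whereas at the anchor inside ADAMTS12 the control lay with shMETTL3.

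An anchor 23 kb from CCDC80, a gene for a matrix protein, held 94, 25 and 30 PETs in shMETTL14, shMETTL3 and shcontrol, a ratio of 2.51 (1.60 to 4.07). An anchor 9 kb from ANXA1, which encodes a phospholipid-binding protein that damps inflammation, held 123, 35 and 39 PETs, a ratio of 2.34 (1.60 to 3.51). An anchor over the start of NDUFS4, a subunit of respiratory complex I, held 104, 29 and 40 PETs, a ratio of 2.39 (1.57 to 3.74). In all of these shMETTL14 was above both other libraries. The others of the 15 lay in TOM1L2, ATXN7L1, GRM5 and ARL15 and 316 kb from NR3C2, the mineralocorticoid receptor gene, with log2 ratios of 1.19 to 1.34. At 14 of the 15 the control lay between the knockdowns, and over all 15 it was nearer to shMETTL3 at 9. Anchors picked for a wide gap between the knockdowns leave the control room to fall inside it, so this count describes them and no more.

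The ARL15 and ATXN7L1 anchors rested on 1 class of distance. Over contacts under 100 kb alone the ARL15 anchor turned to a log2 ratio of -0.32, from 8 PETs in shMETTL14 and 7 in shMETTL3, while its contacts of 100 kb or more numbered 72 and 16. The ATXN7L1 anchor turned to -0.23 over contacts of 100 kb or more, from 8 and 6 PETs, while its shorter contacts numbered 82 and 19. The other 28 anchors among the 15 higher and 15 lower kept their direction in every processing alternative in which they were listed.

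The 15 anchors most lowered in shMETTL14 were stronger, with 107 to 329 scaled PETs in shMETTL3 and 37.4 to 135 in shMETTL14. They included anchors upstream of ZEB1 and HMGA2. The anchor with the lowest log2 ratio, -1.52, was chr2:69133047-69137472, 36 kb from BMP10, with 35 PETs in shMETTL14, 68 in shMETTL3 and 29 in shcontrol. In scaled PETs that is 37.4, 109 and 52.5, so shMETTL3 stood above the other libraries.

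Between ZNF438 and ZEB1, the gene of a zinc-finger repressor that maintains the mesenchymal state, a pair of neighbouring anchors were lower. At chr10:31428858-31432412 PETs numbered 61 in shMETTL14, 112 in shMETTL3 and 49 in shcontrol, a ratio of 0.363 (0.261 to 0.50). At chr10:31434230-31438736 they numbered 82, 141 and 104, a ratio of 0.387 (0.291 to 0.512). shMETTL14 was lowest at each in scaled PETs; shcontrol was close to it at the first (88.8 beside 65.1) and nearer to shMETTL3 at the second (188 beside 226). At chr12:66087345-66094581, 127 kb from HMGA2, which encodes an architectural chromatin protein of senescence-associated foci, PETs numbered 91, 156 and 96, a ratio of 0.389 (0.297 to 0.507). The HMGA2 start itself did not share this: it held 246 scaled PETs in shMETTL14, 239 in shMETTL3 and 234 in shcontrol, a ratio of 1.03 (0.833 to 1.27).

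An anchor within 5 kb of the start of SRP14, a subunit of the signal recognition particle, held 82 PETs in shMETTL14, 142 in shMETTL3 and 62 in shcontrol, a ratio of 0.385 (0.290 to 0.508). An anchor 642 kb from INHBA, the gene of the activin A subunit, held 126, 205 and 70 PETs, a ratio of 0.409 (0.325 to 0.514). At INHBA's distal anchor the shcontrol level of 127 scaled PETs lay near shMETTL14 (135) and shMETTL3 stood apart at 329. An anchor 12 kb from KCNJ15, a potassium channel gene, showed the opposite order: 109, 178 and 137 PETs, or 116, 285 and 248 scaled PETs, so shMETTL14 stood apart. Its ratio was 0.408 (0.318 to 0.521). The remaining anchors of the 15 lay in SLC22A5, STARD13, CACNA2D3 and SMG6 and near ITPRIPL2, CD109, HAO1 and MPHOSPH6, with log2 ratios of -1.17 to -1.35. The SLC22A5 start went the other way from the anchor inside that gene. It held 67, 26 and 21 PETs in shMETTL14, shMETTL3 and shcontrol, a ratio of 1.72 (1.08 to 2.81). The control lay between the knockdowns at 11 of the 15.

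**Figure D4:**
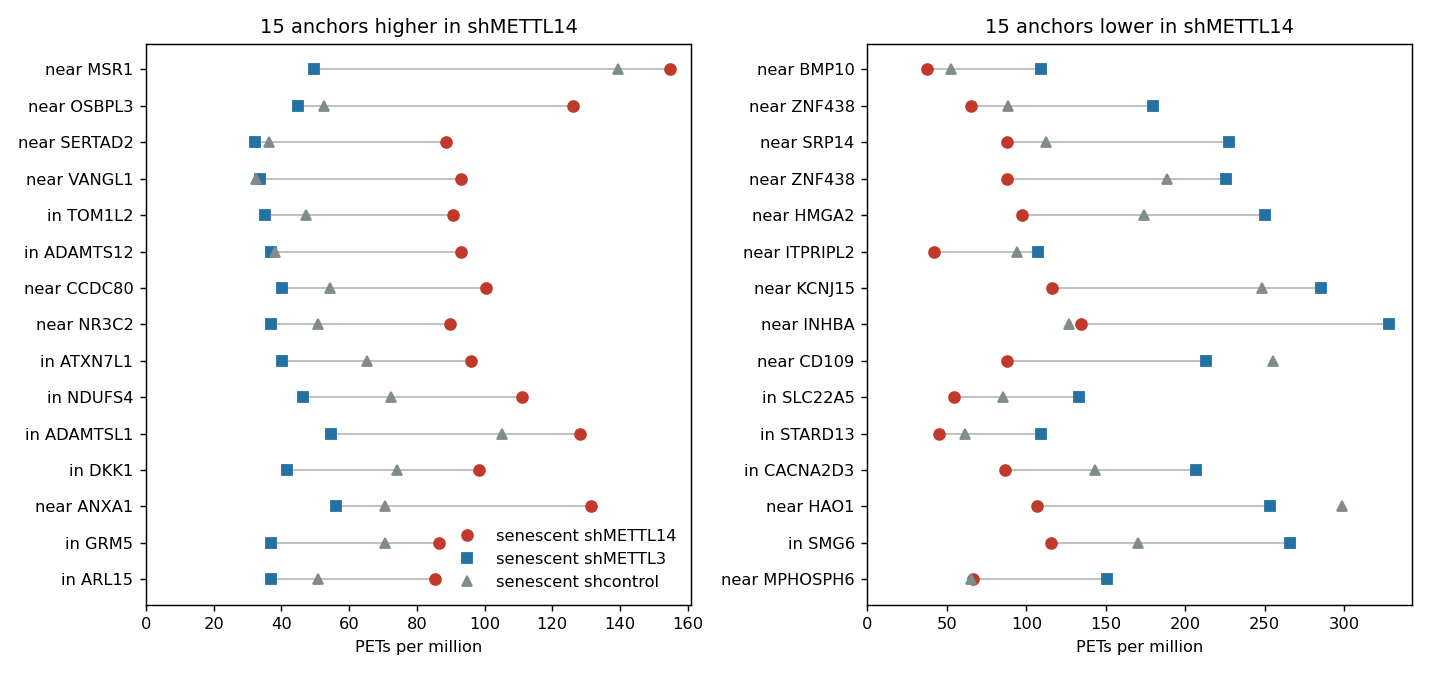
Scaled PETs (PETs per 1000000) at the 15 anchors with the highest (left) and 15 with the lowest (right) log2 ratio among those that met the size rule with at least 100 PETs, in the 3 senescent libraries, each named by its nearest gene with an entered position. Grey lines join the knockdown libraries; the shcontrol triangle lies between them at 14 anchors on the left and 11 on the right.

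Some lowered anchors lay side by side. Groups of at least 3 anchors that met the size rule in the same direction, no more than 200 kb apart, numbered 10, and 9 of these were lower in shMETTL14. This grouping was chosen after the values were seen and is given as a description. A PET that joins neighbouring anchors counts at each of them, and the groups were built from anchors that met the rule. Tallies of anchors below or above 0 within a group are therefore not separate observations. The groups held 37 of the 206 lower anchors but 4 of the 353 higher ones. Without them, 349 anchors were higher and 169 lower.

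Upstream of and over the start of ZEB1, chr10:31428858-31645477 held 15 anchors with at least 20 PETs, and all 15 had a log2 ratio below 0. The stretch held 647 PETs in shMETTL14, 720 in shMETTL3 and 576 in shcontrol, or 691, 1154 and 1043 scaled PETs. The shMETTL3 library was close to the control and shMETTL14 lower than both, with a knockdown ratio of 0.599 (0.538 to 0.667). The ratio was 0.554 for contacts under 100 kb and 0.627 for those of 100 kb or more, so it did not rest on 1 range of distance. At chr21:39541859-39725678, from KCNJ15 towards ERG, an endothelial ETS factor gene, all 9 anchors were below 0. scaled PETs were 915 in shMETTL14, 1734 in shMETTL3 and 1701 in shcontrol, and the ratio was 0.528 (0.482 to 0.578). The entered position of KCNJ15 could not be matched to its neighbours' spacing, so the name is a nearby landmark.

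In SMG6, which encodes an endonuclease of nonsense-mediated decay, chr17:1984338-2128426 held 12 anchors below 0 and none above. scaled PETs were 854 in shMETTL14, 1580 in shMETTL3 and 1196 in shcontrol, and the ratio was 0.541 (0.492 to 0.594). From SRP14 to BMF, a gene of a pro-apoptotic BH3-only protein, chr15:40335642-40400399 held 7 anchors below 0 of 7. There the levels were 302, 623 and 342, and the ratio 0.485 (0.414 to 0.566). The control was intermediate at SMG6 but close to shMETTL14 at SRP14 and BMF, where shMETTL3 was the library that stood out.

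In CACNA2D3, a calcium channel subunit gene, chr3:54895573-55035961 had 6 anchors below 0 of 6 and a ratio of 0.447 (0.379 to 0.526). On chromosome 6, 384 kb from CD109, chr6:74922080-74989148 had 5 of 5 and the lowest ratio of the groups, 0.376 (0.305 to 0.463), with 154, 409 and 451 scaled PETs in shMETTL14, shMETTL3 and shcontrol. The stretch 123 kb from HMGA2 had 4 of 4 and a ratio of 0.389 (0.315 to 0.478). Groups 34 kb from MYH9 and from ZFAND5 to TMC1 had ratios of 0.491 (0.399 to 0.603) and 0.666 (0.590 to 0.752). The single raised group covered the fibrillar collagen genes COL3A1 and COL5A2, chr2:189865832-190101797, with 818 scaled PETs in shMETTL14, 617 in shMETTL3 and 772 in shcontrol. Of its 19 anchors 16 were above 0, and the ratio was 1.33 (1.17 to 1.5). The starts of both collagen genes showed no such difference at this depth, with ratios of 1.06 (0.769 to 1.48) for COL3A1 and 1.01 (0.646 to 1.59) for COL5A2.

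Single pairs of anchors were compared next. Of 368291 pairs listed in shMETTL14 and 270754 in shMETTL3, 147682 were listed in both, which is 40.1% of the former and 54.5% of the latter. Pairs with at least 20 PETs over both libraries numbered 10358. By the 2-fold rule 252 of them were higher in shMETTL14 (2.43%) and 465 lower (4.49%), 6.92% together. Lower pairs were thus the more frequent among pairs, whereas higher ones were the more frequent among anchors. When pairs were scaled within their span class, 281 were higher and 372 lower. The excess of lower pairs was large at 100 to 200 kb 14 of 856 pairs were higher and 75 lower.

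The 10 most raised pairs had at least 33 PETs in shMETTL14. A pair 29.5 kb apart inside SMAD3, which encodes a transducer of TGF-beta signals, held 74 PETs in shMETTL14, 15 in shMETTL3 and 23 in shcontrol. The shMETTL14 level of 79.0 scaled PETs was above both the 24 of shMETTL3 and the 41.7 of shcontrol, with a ratio of 3.29 (1.87 to 6.17). SMAD3's start as a whole did not differ in this way (ratio 0.949, 0.813 to 1.11). A pair inside ITGA2, a collagen-binding integrin gene, held 41, 9 and 18 PETs, a ratio of 3.04 (1.45 to 7.10). A pair from near DUSP1, a phosphatase gene of MAP kinase feedback, to ERGIC1 spanned 132 kb and held 43, 10 and 11 PETs, a ratio of 2.86 (1.42 to 6.39). The others of the 10 most raised lay inside COA1, TRIO and at TBC1D1 and ASPH, between DDX60L and PALLD, and near CBLB and MN1, with 33 to 50 PETs in shMETTL14 and 7 to 12 in shMETTL3.

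The most lowered pairs included several from the groups above. A contact of 210 kb from CACNA2D3 held 14 PETs in shMETTL14, 35 in shMETTL3 and 19 in shcontrol, a ratio of 0.267 (0.132 to 0.508). The pair between SRP14 and BMF held 12, 30 and 4 PETs, and the pair between anchors 642 kb and 583 kb from INHBA held 15, 37 and 4. At these last pairs the control was lower than both knockdowns, so shMETTL3 lay further from the control than shMETTL14 did. The pair from KCNJ15 towards ERG held 29, 59 and 56 PETs, with the control at the shMETTL3 level or above: 31.0, 94.6 and 101 scaled PETs. Its ratio was 0.327 (0.202 to 0.519). The remaining pairs lay at FAM185A and ETV1, near DUSP6 and BCAS1, and between CYP11A1 and SEMA7A and close to MED9, with 12 to 17 PETs in shMETTL14 and 29 to 36 in shMETTL3.

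Over windows of 1 Mb, where each PET with an end in the window counts once, differences were smaller. Of 1778 windows with at least 200 PETs, 46 were at least 1.5-fold higher in shMETTL14 (2.59%) and 8 lower (0.45%), 3.04% together. The median ratio was 1.05, and with TMM scaling, which sets the middle of the windows to 1, 28 were higher and 17 lower. Raised windows were sparse ones: 36 of the 46 held 200 to 499 PETs, and none held 2000 or more. The median ratio fell from 1.10 in windows of 200 to 499 PETs to 0.978 in those of 2000 or more.

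The most raised window was chr12 from 60 to 61 Mb, which overlaps the monocarboxylate transporter gene SLC16A7. It held 167 PETs in shMETTL14, 53 in shMETTL3 and 75 in shcontrol, a ratio of 2.10 (1.53 to 2.92). The window of chromosome 7 from 19 to 20 Mb, which holds TWIST1 and the end of HDAC9, had 176, 63 and 70 PETs and a ratio of 1.86 (1.39 to 2.52). TWIST1 encodes a mesenchymal transcription factor, and its own start held 34 PETs against 13, a ratio of 1.74 with an interval that included 1 (0.896 to 3.60). The others of the 5 most raised lay at CNBD1 on chromosome 8 (88 to 89 Mb), DPPA4 on chromosome 3 (109 to 110 Mb) and FAM83B on chromosome 6 (54 to 55 Mb), with ratios of 1.88 to 2.00.

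Of the 5 most lowered windows, those at CACNA2D3 and KCNJ15 overlap the anchor groups above. Chromosome 3 from 54 to 55 Mb, which overlaps CACNA2D3, held 146 PETs in shMETTL14, 242 in shMETTL3 and 147 in shcontrol, a ratio of 0.402 (0.325 to 0.496). The next window, 55 to 56 Mb, holds WNT5A, a gene of a secreted Wnt ligand, and had 1111, 1129 and 858 PETs and a ratio of 0.656 (0.603 to 0.713). In it 19 of 21 anchors with at least 20 PETs were below 0, but the window was picked for its low ratio. The CACNA2D3 group runs into it, and PETs that join it to the window before count in both. Neither the tally nor the window is therefore a separate observation. The WNT5A start held 206, 266 and 272 scaled PETs in shMETTL14, shMETTL3 and shcontrol, a ratio of 0.775 (0.626 to 0.959). Chromosome 21 from 39 to 40 Mb (KCNJ15 and ERG) had a ratio of 0.553 (0.506 to 0.603), chromosome 5 from 0 to 1 Mb (AHRR, a repressor of the aryl hydrocarbon receptor) 0.606 (0.513 to 0.714) and chromosome 14 from 91 to 92 Mb (CCDC88C and RPS6KA5) 0.636 (0.558 to 0.724).

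Called loops, interactions with 4 or more PETs whose false discovery rate in the authors' files was 0.01 or less, numbered 20711 in shMETTL14, 14883 in shMETTL3 and 13388 in shcontrol. The shMETTL14 library was the deepest. Brought to the shMETTL3 depth it kept an expected 15602 loops, close to the 14883 of shMETTL3, with the false discovery rates left as deposited. Loops with the same anchor ends in both knockdowns numbered 9780, which is 47.2% of the shMETTL14 loops and 65.7% of the shMETTL3 loops. The median loop span at full depth was 157 kb in shMETTL14, 95.6 kb in shMETTL3 and 94.3 kb in shcontrol. At the shMETTL3 depth the shMETTL14 median was 61.7 kb, below that of shMETTL3, so the order of the loop spans turned with depth. False discovery rates were not recomputed at that depth, and no order of loop spans is drawn from these values. Anchors with 5 or more loops numbered 2432 in shMETTL14 and 1650 in shMETTL3, at full depth.

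Genes of the senescence program were compared at their starts. For each gene in 12 lists, PETs with an end in an anchor within 5 kb of the start were counted. Of 176 listed genes 165 had such an anchor and 153 had at least 20 PETs over both knockdowns. By a 1.5-fold rule, 3 were higher in shMETTL14 and 6 lower, against 5.03% higher and 4.45% lower (9.48% together) among all 36352 anchors that held 20 PETs or more. By this rule 5.88% of the listed genes differed, under the share of all anchors. The median log2 ratio of the 153 genes was -0.04, beside 0.04 over all anchors with at least 20 PETs. Of the 153 genes, 73 lay above 0 and 80 below. Of all 17878 anchors with at least 50 PETs, 9213 lay above 0 and 8665 below. Genes of a list are not replicates of a library, and tallies by side within a list are given as a description. An interval above 1 was found at 9 genes and below 1 at 22, where 5.96% of anchors were above and 6.01% below (12% together). By this measure the listed genes stood the other way, with 20.3% differing and 14.4% below 1. An interval excludes 1 more readily where PETs are many, and median log2 ratios were lower at stronger anchors. The listed genes were not compared with anchors of like PET counts. Whether anchor strength had a part in these shares or in the lower median was therefore not tested. When anchors within 20 kb of the start were counted, CXCL2, IFIT2, MMP10, JUNB and TGFB1 no longer met the rule.

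The targeted genes come first. The METTL14 start held 17 PETs in shMETTL14, 8 in shMETTL3 and 13 in shcontrol, or 18.2, 12.8 and 23.5 scaled PETs, a ratio of 1.42 (0.579 to 3.79). The METTL3 start held 9, 8 and 16 PETs, or 9.61, 12.8 and 29.0 scaled PETs, a ratio of 0.750 (0.257 to 2.23). Neither difference was detectable at this depth, and a hairpin acts on the transcript, so contacts at these starts do not check the knockdown. Of 18 m6A writer, eraser and reader genes, 14 had at least 20 PETs and none met the 1.5-fold rule or had an interval that excluded 1. WTAP, the adaptor of the writer complex, held 103, 97.8 and 132 scaled PETs in shMETTL14, shMETTL3 and shcontrol, and the eraser gene ALKBH5 34.2, 46.5 and 41.7.

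Inflammatory genes went both ways. Of 16 cytokine and chemokine genes, all with at least 20 PETs, 1 was higher and none lower by the 1.5-fold rule, and the median log2 ratio was 0.10. CXCL2, a neutrophil chemokine gene, held 99 PETs in shMETTL14, 43 in shMETTL3 and 62 in shcontrol, or 106, 68.9 and 112 scaled PETs. Its ratio was 1.53 (1.06 to 2.25), with shMETTL14 at the control level and shMETTL3 under both. CXCL8, its neighbour in the same chemokine cluster, held 614, 296 and 514 PETs, or 656, 474 and 931 scaled PETs. Both knockdowns were under the control there, shMETTL3 more so, and the ratio between them was 1.38 (1.20 to 1.59). The other chemokine genes of that cluster, CXCL1, CXCL3, CXCL5 and CXCL6, had ratios of 0.745 to 1.15 with intervals that included 1.

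Of the 16 genes, 9 had a log2 ratio above 0 and 7 below, and 3 had an interval below 1: IL1B, INHBA and LIF. IL1B, an interleukin gene of the secretory program, held 932, 735 and 614 PETs in shMETTL14, shMETTL3 and shcontrol, or 995, 1178 and 1112 scaled PETs, a ratio of 0.845 (0.766 to 0.932). INHBA held 359, 511 and 362 scaled PETs, a ratio of 0.702 (0.600 to 0.821), so shMETTL3 was the library above the control. LIF, a cytokine of the interleukin-6 family, held 325, 407 and 466 scaled PETs, a ratio of 0.797 (0.673 to 0.946). IL6 did not differ detectably, with 167, 165 and 203 scaled PETs and a ratio of 1.01 (0.782 to 1.31). IL1A was at 0.798, with an interval that included 1 (0.612 to 1.04). The chemokine genes CCL2, at 1.78 (0.891 to 3.79), and CCL20, at 1.51 (0.801 to 2.98), held few PETs, and their intervals also included 1.

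Among 20 of 22 genes of proteases, growth factors and their regulators, 14 had a log2 ratio below 0 and the median was -0.16. Over all anchors with at least 50 PETs, 8665 of 17878 lay below 0. MMP10, the stromelysin-2 gene, held 47 PETs in shMETTL14, 59 in shMETTL3 and 59 in shcontrol, or 50.2, 94.6 and 107 scaled PETs. shMETTL14 was lower than both other libraries, and the ratio was 0.531 (0.354 to 0.792). Its neighbours in the metalloproteinase cluster, MMP1 at 0.827 (0.659 to 1.04) and MMP3 at 0.902 (0.734 to 1.11), did not meet the rule. The growth factor genes VEGFA at 0.743 (0.572 to 0.966) and HGF at 0.761 (0.581 to 0.997) and the hormone gene STC1 at 0.728 (0.593 to 0.895) had intervals below 1 without reaching 1.5-fold. No gene of this list had an interval above 1.

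Among matrix and mesenchymal genes, LOX, FOXF1 and ZEB1 were lower in shMETTL14 by the 1.5-fold rule and none was higher. LOX, the enzyme that cross-links collagen, held 54 PETs in shMETTL14, 60 in shMETTL3 and 59 in shcontrol, or 57.7, 96.2 and 107 scaled PETs, a ratio of 0.600 (0.407 to 0.881). Of 15 measured matrix genes LOX alone met the rule, TNC (0.685, 0.573 to 0.818) and COL6A3 (0.793, 0.662 to 0.951) had intervals below 1, and the median log2 ratio was -0.24. COL4A1 and COL4A2 share the anchor at their common start, so their equal values count once. Among 11 measured mesenchymal transcription factor genes, FOXF1, a lung mesenchyme factor, held 239, 267 and 283 PETs, or 255, 428 and 513 scaled PETs, a ratio of 0.596 (0.499 to 0.713). ZEB1 held 166, 191 and 168 PETs, or 177, 306 and 304.3 scaled PETs, a ratio of 0.579 (0.467 to 0.717). At ZEB1 the shMETTL3 and shcontrol libraries were level and shMETTL14 lower. The stretch described above runs over this start, so the like order there is not a separate observation. SNAI2 was at 0.729 (0.603 to 0.883), while the median log2 ratio of the list was 0.01, with 6 genes above 0 and 5 below. TWIST1 was at 1.74 and TCF21, another mesenchymal factor, at 1.47, each with an interval that included 1, and PRRX1 was at 1.01 (0.732 to 1.40).

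TGFB1, a ligand that drives matrix synthesis, held 25 PETs in shMETTL14, 31 in shMETTL3 and 21 in shcontrol, a ratio of 0.537 (0.304 to 0.940), the only 1 of 10 measured TGF-beta and YAP genes to meet the rule. SMAD7, the inhibitory SMAD, was at 0.813 (0.699 to 0.946). Among 18 genes of AP-1, ETS, CEBP and NF-kB factors, JUNB, an AP-1 subunit, held 69, 76 and 66 PETs, or 73.7, 122 and 120 scaled PETs, a ratio of 0.605 (0.430 to 0.849). There shMETTL3 was at the control level and shMETTL14 below. CEBPB, a driver of cytokine transcription, was at 0.685 (0.519 to 0.905), and the median log2 ratio of the list was -0.11.

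Genes with intervals above 1 were spread over other lists. IFIT2, an interferon-induced antiviral gene, held 102 PETs in shMETTL14, 43 in shMETTL3 and 27 in shcontrol, or 109, 68.9 and 48.9 scaled PETs, a ratio of 1.58 (1.10 to 2.31). Its neighbour IFIT3 held 236, 176 and 116 scaled PETs, a ratio of 1.34 (1.06 to 1.70). At both genes shMETTL14 was highest and the control lowest; their starts lie close and may share an anchor. IRF1, a transcription factor of the interferon response, was at 0.713 (0.564 to 0.903), so the 7 measured interferon genes did not move as 1 group. In the arrest list, CDKN1A, the gene of the cell cycle inhibitor p21, held 148, 160 and 134 scaled PETs, a ratio of 0.926 (0.711 to 1.21). GDF15, a gene of a stress-induced secreted factor, was at 0.769 (0.648 to 0.914) and CCND1 at 0.741 (0.559 to 0.984).

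The remaining lists held no gene past the 1.5-fold rule. All 6 measured proliferation genes had a log2 ratio above 0, with a median of 0.27, and MYC alone had an interval above 1, with 331, 268 and 415 scaled PETs and a ratio of 1.24 (1.02 to 1.5). In the RAS-ERK feedback list, with a median of 0.02 over 14 genes, DUSP1 was at 1.33 (1.18 to 1.5), and IER3 (0.731, 0.637 to 0.840) and DUSP6 (0.806, 0.672 to 0.969) lay below 1. Of 13 measured genes of contact and enhancer machinery 9 were above 0 with a median of 0.37. HMGA1 was the one with an interval above 1, at 1.42 (1.04 to 1.94). Over all anchors with at least 50 PETs, 9213 of 17878 lay above 0, and the tallies of these short lists are a description. The cohesin subunit RAD21 was at 1.30 (0.751 to 2.32) and CTCF, the factor that halts cohesin, at 0.948 (0.656 to 1.38).

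**Figure D5:**
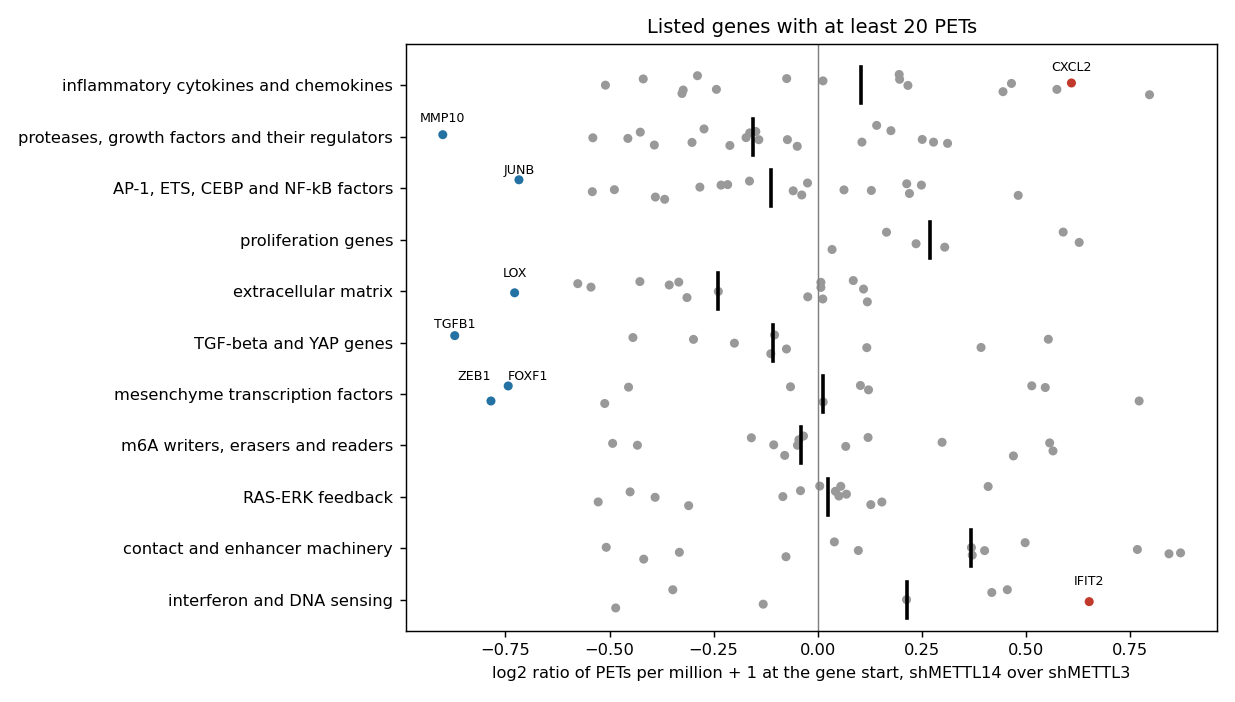
log2 ratio of scaled PETs plus 1 at the start of each listed gene with at least 20 PETs, shMETTL14 over shMETTL3, for 11 of the 12 lists (the arrest list is not drawn); points are genes, spread vertically for visibility, and black bars are list medians. Red genes (CXCL2, IFIT2) and blue genes (MMP10, JUNB, LOX, TGFB1, FOXF1, ZEB1) met the 1.5-fold rule; list medians run from -0.24 for extracellular matrix to 0.37 for contact and enhancer machinery.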

How the data were processed

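H3K27ac HiChIP libraries of senescent IMR90 cells were analysed, 1 per genotype. Per the submitters' processing notes, HiC-Pro 3.1.0 and hg19 were used; the names of the deposited files hold the word mango, a caller and file format for interactions, but no label states the caller or its settings. Each deposited file lists anchor pairs with 8 columns and no header. Column 7 was read as the deposited raw count of PETs, and column 8, unnamed in the files, as a q-value (false discovery rate) the authors deposited. The files hold spans of 5 kb to 2 Mb. Anchors were matched between libraries by exact ends, and positions are counted from 1.

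Intervals of a ratio are exact conditional binomial intervals at 95% from PET counts (scipy 1.17.1, Python 3.11.15). The size rule was checked on simulated counts that held counting error alone. That check says nothing of variation between cultures, hairpins or libraries. Named loci were the 15 anchors at each end with at least 100 PETs, the 10 pairs with at least 40, the 5 windows with at least 200, listed genes past 1.5-fold whose interval excluded 1, and METTL3 and METTL14; some loci that the rule names are not reported here, though counts include them, and other genes were added after their values were seen. Gene positions on hg19 were entered by hand from general knowledge for 285 genes, 95 of them after values were seen, since the RefSeq table at hand is on GRCh38.p14; no position was converted. Spacing to neighbours in that table agreed within 5 kb on the start side for 248 genes and on the start or other side for 262. Length agreed for 20 of the other 23. The start side was not matched for WNT5A, COL5A2, CCND1, CCL2, WTAP and SMAD7, among others, so values at those starts rest on less well checked positions. Promoters were found for 132 of 176 listed genes. Equal depth is the exact hypergeometric expectation. Alternatives were other PET minimums, TMM scaling (edgeR 4.0.16, R 4.3.3), scaling to shared pairs, pseudocounts, distance limits and loop thresholds. Members and lists were chosen with earlier results of these data known.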

Additional observations from a re-analysis of the deposited data

How the results depend on the processing

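With 1 library a genotype, counting intervals leave out every difference between cultures, hairpins and preparations, and weak loci are limited by depth. No paired analysis was possible because each genotype has 1 library and no test was made. The anchors at least 2-fold apart numbered 559, and 1820 at a minimum of 20 PETs, 96 at 100 and 21 at 200, 358 with a pseudocount of 5 scaled PETs, 2110 at 1.5-fold, 267 and 225 over contacts under 100 kb and of 100 kb or more, and 846 over called interactions. Fewer PETs enter the last 3 and fewer anchors the higher minimums. The cause of the rise over called interactions and of the other moves was not tested. Anchor pairs numbered 717, and 1427 at a minimum of 10 PETs and 92 at 50. The share ratio at 1 to 2 Mb was 1.29, and 2.00 over interactions of at least 2 PETs, 1.33 over single PETs and 3.12 over those of 4 or more, which fell to 2.02 with depth made equal. The median span of called loops in shMETTL14 minus that in shMETTL3 was 61.1 kb, and -33.9 kb with depth made equal; this and the ratio of 3.12 were added after the data were seen. The ratio at 5 to 20 kb was 0.969, and 0.941 over interactions of at least 2 PETs and 0.620 over single PETs. The ratio at 100 kb or more was 1.05, and 1.12, 1.07 and, without spans under 20 kb, 1.04. Windows at least 1.5-fold apart numbered 54, and 15 at a minimum of 500 PETs. Listed genes past the rule numbered 9, and 5 with anchors within 20 kb and, in alternatives added after the data were seen, 16 over contacts under 100 kb. Counts for chromosomes and called loops stayed within 1.5 times of their value in the alternatives run. Of 382 alternative values of named anchors, 327 kept direction and size rule, 53 kept direction alone and 2 reversed: the ARL15 anchor at -0.32 and the ATXN7L1 anchor at -0.23. Chromosome 6 reversed to 0.996 over contacts of 100 kb or more. No named pair, window or gene reversed in the alternatives run; of 54 values for named genes 16 no longer met the rule.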
